A study of Mus musculus with 70 samples.

Results

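The comparison described here was that of the CD45-negative bulk cells of the mouse brain at postnatal day 15 (P15) with the same fraction at postnatal day 6 (P6). The members were 22 small RNA libraries of the 70 in the series, chosen by age and cell fraction from their titles, with 12 at P15 and 10 at P6. All mice were untreated wild-type C57BL/6 animals. At P15 there were 6 females and 6 males, and at P6 there were 4 females and 6 males. P6 female mouse 6 was left out (the study removed 1 mouse as an outlier without naming it). The series holds no library of P6 female mouse 4, and the study excluded 1 unnamed sample that failed RNA quality control. Whole brains were dissociated, cells carrying CD45, a surface protein of blood-derived cells and microglia, were captured on an antibody-coated dish, and the cells that did not bind gave the bulk fraction. The bulk fraction is thus a mixture of neurons, glia and vascular cells and is not 1 cell type. In such a mixture, more cells of a type and more RNA per cell cannot be told apart. Each library came from 1 mouse, and the sources used here do not state which mice shared a litter.

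MicroRNAs (miRNAs) are short RNAs that guide the Argonaute protein to messenger RNAs, mostly by pairing of the seed, the bases from the second to the eighth, and so lower the output of those messengers. Each precursor hairpin can give a 5p and a 3p arm, and families that share a seed can act on overlapping targets. In the rodent brain the days between P6 and P15 include the start of myelination, the birth of late neurons, the formation of synapses and, in mice, the opening of the eyes. Among the miRNAs studied in these processes, miR-219 and miR-338 are known to promote the maturation of oligodendrocytes, the cells that make myelin. The miR-17-92 cluster is known for its activity in dividing cells, and miR-449 for its place in cells that carry many motile cilia, such as the ependyma that lines the ventricles.

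The mature sequences of the miRNAs on which the comparison turned are given first, from 5′ to 3′ with the seed in capitals, as listed by RefSeq for GRCm38.p6. Of 1019 annotated miRNAs tested, 830 had a sequence there. The first set holds miRNAs that were higher at P15, together with the other members of the miR-29 family and the miR-138 precursor, and shows that the 3 miR-29 members carry 1 seed.
miR-219a-5p: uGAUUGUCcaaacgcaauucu
miR-338-3p: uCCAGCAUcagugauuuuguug
miR-338-5p: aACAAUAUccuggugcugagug
miR-29a-3p: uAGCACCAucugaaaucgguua
miR-29b-3p: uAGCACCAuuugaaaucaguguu
miR-29c-3p: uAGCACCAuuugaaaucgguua
miR-138-1-3p: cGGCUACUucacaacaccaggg
miR-138-5p: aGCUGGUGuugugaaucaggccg

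The second set holds miRNAs that were lower at P15, with the relatives that share their seeds. miR-34b-5p is shown because it has the seed of miR-449a-5p and miR-449c-5p but did not follow them.
miR-449a-5p: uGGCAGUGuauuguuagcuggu
miR-449c-5p: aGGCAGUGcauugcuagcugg
miR-34b-5p: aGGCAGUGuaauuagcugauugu
miR-130a-3p: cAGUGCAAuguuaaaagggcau
miR-130b-3p: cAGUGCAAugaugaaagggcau
miR-301a-3p: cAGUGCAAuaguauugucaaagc
miR-17-5p: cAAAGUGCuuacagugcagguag
miR-20a-5p: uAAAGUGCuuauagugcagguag
miR-199a-3p: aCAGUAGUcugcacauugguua
miR-199a-5p: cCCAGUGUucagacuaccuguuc
miR-214-3p: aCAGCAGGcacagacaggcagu
miR-135a-1-3p: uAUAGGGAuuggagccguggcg
let-7c-1-3p: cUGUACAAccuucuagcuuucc
miR-219a-1-3p: aGAGUUGCgucuggacgucccg
miR-3473b: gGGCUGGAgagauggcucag
miR-3473e: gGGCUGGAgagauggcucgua

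Levels are given as CPM, the count of a miRNA relative to the scaled library total. TMM is a factor per library that aligns the bulk of the miRNAs between libraries. The total count ranged from 5979569 to 8747394 at P6 and from 2795957 to 6763115 at P15, and 11 of the 12 P15 libraries lay below every P6 library (two-sided permutation test, p = 4e-05). Within P15 the males had total counts of 2795957 to 4076911 and the females of 3580323 to 6763115. A count of 3, taken as the floor of detection, corresponded to between 0.315 and 0.454 CPM at P6 and between 0.422 and 0.766 CPM at P15. Floors and intervals cover counting error only. The share of counts in the top 10 miRNAs averaged 64.0% at P6 (SD 1.74) and 60.7% at P15 (SD 1.97). These means differed (two-sided permutation test, p = 0.0007), while the ranges of 60.9% to 66.9% and 57.2% to 64.7% overlapped. The first dimension of a multidimensional scaling of the 22 libraries, which held 17.4% of the variance, separated the ages.

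A miRNA was called when its change exceeded a fold threshold of 2 (limma's TREAT, adjusted p under 0.05 over 1072 features). By this rule 20 features were higher at P15, which is 1.87% of those tested, and 18 were lower, which is 1.68%. With no fold threshold, 191 (17.8%) were higher and 225 (21.0%) lower. In the text "rose" and "fell" refer to this second rule unless the fold threshold is named. The median log2 fold change over all 1072 features was 0.02. It was higher by 0.121 under DESeq2 size factors and by 0.157 with library size alone, and of the calls without fold threshold 45.9% were rises under TMM, 57.0% under DESeq2 size factors and 61.4% with library size alone. The balance of small rises and falls therefore depended on the scaling. The P6 and P15 libraries did not overlap at all for 63 features (5.88%), and 27 of these were among the 38 that passed the fold threshold. Of the 38, 3 had entered the test only through the age at which they were higher, since fewer than 5 other libraries reached 1 CPM, and so had to differ. These were chr2_24908, miR-302a-3p and miR-214-5p, whose counts are given with no test.

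**Figure D1:**
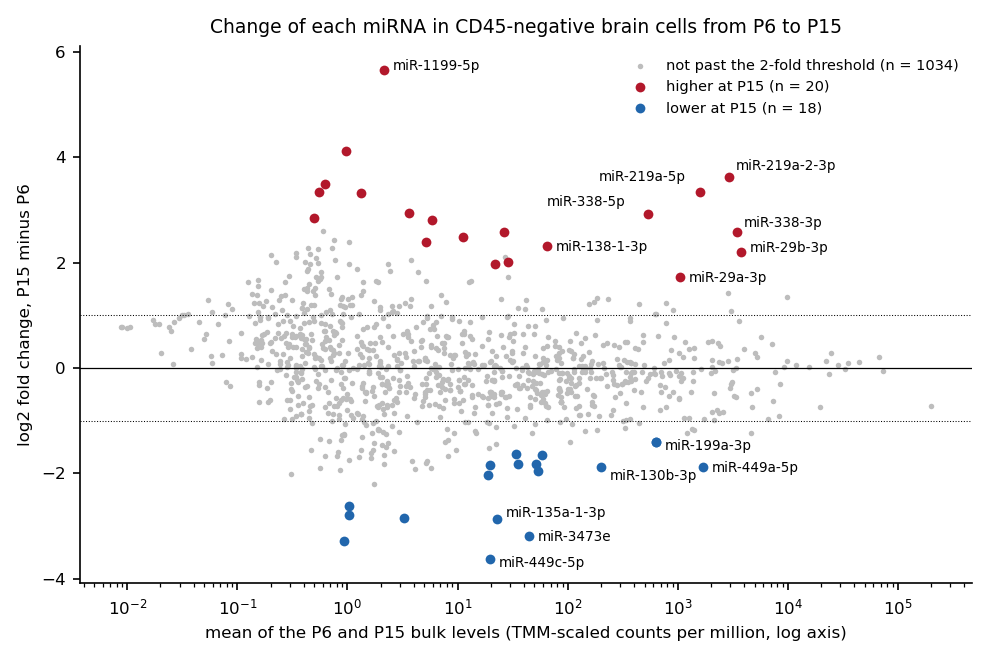
Log2 fold change from P6 to P15 in the CD45-negative cells (vertical axis) of each of 1072 features against its mean level in CPM (horizontal log axis). Red points are the 20 features higher and blue points the 18 lower at P15 past the 2-fold threshold, and dotted lines mark that threshold. Among features above 1000 CPM, miR-219a-2-3p, miR-219a-5p, miR-338-3p, miR-29b-3p and miR-29a-3p lie furthest up and miR-449a-5p furthest down.

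The most abundant miRNAs kept their order for the most part. miR-9-5p, a miRNA of neural progenitors and their progeny, was first at both ages, at 250481 ± 20541 CPM (SD, n = 10) at P6 and 154271 ± 37161 CPM (SD, n = 12) at P15. It fell by 0.73 ± 0.18 on the log2 scale (SE, adjusted p = 0.000508), which did not pass the fold threshold, and its other arm miR-9-3p fell by 0.74 ± 0.18 (SE, adjusted p = 0.000506). let-7c-5p and the neuronal miRNA miR-124-3p followed at both ages. miR-124-3p averaged 63753 ± 23706 CPM (SD) at P6 and 72289 ± 21826 CPM (SD) at P15, a change smaller than the spread between mice (log2 0.21 ± 0.16, SE, adjusted p = 0.316). Of the 10 leading miRNAs at P6, 9 were also among the 10 leading ones at P15. The exception was miR-9-3p, whose place was taken by the endothelial miR-126a-3p. Large changes thus lay below the top of the abundance list.

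The miRNAs of the oligodendrocyte lineage gave the largest rises among abundant miRNAs. Of 6 tested, 4 were higher past the fold threshold, against 1.87% of all features, and the list median was 2.75. miR-219a-2-3p ranged from 128 to 860 CPM at P6, with a median of 493, and from 4047 to 6143 CPM at P15, with a median of 5299. The lowest P15 library was far above the highest P6 library, and the groups did not overlap. The fold change was 12.4 (log2 3.63 ± 0.19, SE, limma TREAT adjusted p = 2.82e-18). miR-219a-5p, the other arm, ranged from 121 to 492 CPM at P6 (median 306) and from 1571 to 3947 CPM at P15 (median 3082), a change of 10.1-fold (log2 3.34 ± 0.18, SE, adjusted p = 6.22e-18). The lowest P6 values of both arms came from 1 library, P6 female replicate 5, which was also the highest of P6 in miR-132-3p.

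miR-338 arises from an intron of Aatk, a kinase gene, on its strand (GRCm38, chr11:120014765-120014862, minus strand). miR-338-3p ranged from 667 to 1255 CPM at P6, with a median of 980, and from 4041 to 7542 CPM at P15, with a median of 5720. Every P15 library was above every P6 library, at 5.99-fold on average (log2 2.58 ± 0.12, SE, adjusted p = 5.8e-18). miR-338-5p ranged from 78.6 to 194 CPM at P6 (median 132) and from 630 to 1164 CPM at P15 (median 969), and was 7.59-fold higher (log2 2.92 ± 0.14, SE, adjusted p = 4.39e-18). The rise was seen in both sexes for both arms, at 2.49 and 2.69 on the log2 scale in females and 2.68 and 3.16 in males. At 8 weeks the mean levels were higher still, at 17451 ± 3005 CPM (SD) for miR-338-3p and 7401 ± 1675 CPM (SD) for miR-219a-2-3p.

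The same mature miR-219a-5p can come from 2 precursors, and their 3p arms tell the precursors apart. Mir219a-1 lies at chr17:34024983-34025092 in an exon of the long non-coding RNA Gm26940, and Mir219a-2 at chr2:29845631-29845727 outside annotated genes of the same strand. miR-219a-1-3p was low and moved the other way, from 5.70 to 11.7 CPM (median 6.99) at P6 to between 0 and 4.47 CPM (median 2.69) at P15. It fell by 1.80 ± 0.28 on the log2 scale (SE, adjusted p = 2.63e-07), with no overlap between the ages, and narrowly missed the fold threshold (adjusted p = 0.078). The log2 ratio of miR-219a-1-3p to miR-219a-2-3p averaged -5.84 at P6 (SD 0.89) and -11.31 at P15 (SD 1.32) (two-sided permutation test, adjusted p = 0.00012, the smallest these resamples gave). miR-219b-5p, the sixth member of the list, did not pass the test in either direction.

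**Figure D2:**
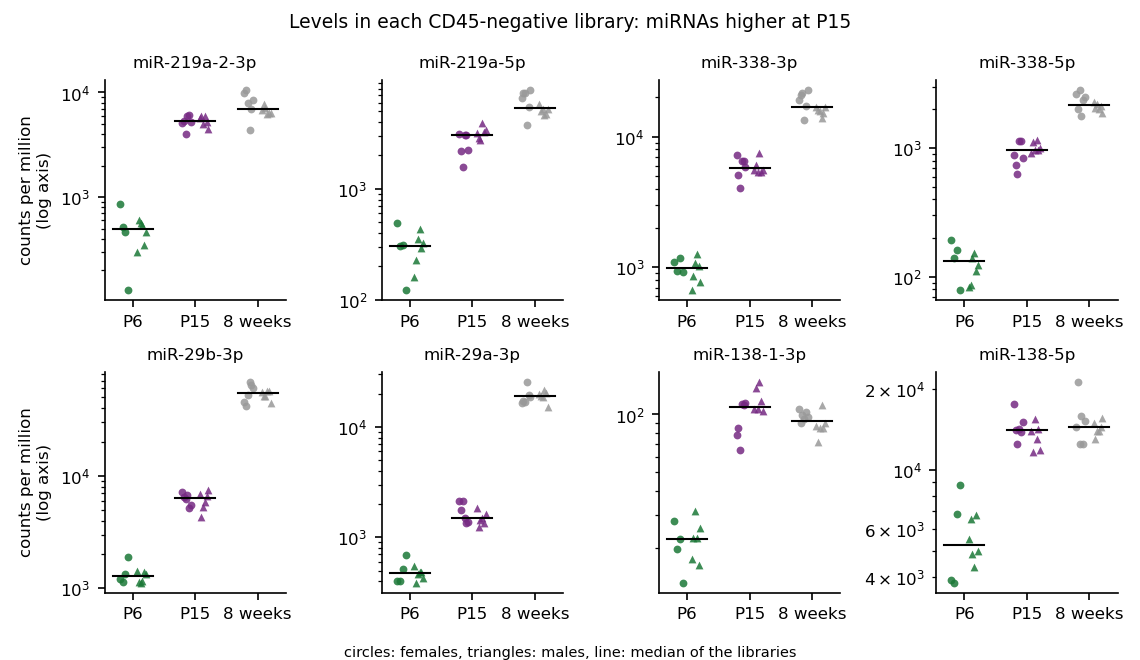
Levels in CPM (vertical log axes) of 8 miRNAs that were higher at P15, in each CD45-negative library at P6 (green), P15 (purple) and 8 weeks (grey). Circles are females, triangles males and lines the medians. In all 8 panels every P15 library lies above every P6 library, and both miR-29 panels show a further step up at 8 weeks.

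All 7 arms of the miR-29 family rose, against 17.8% of all features. The family is known to act on messengers of collagens and DNA methyltransferases and to increase as neurons mature. Of its arms, 2 passed the fold threshold, against 1.87% of all features, and the family median was 1.11. miR-29b-3p ranged from 1125 to 1910 CPM at P6, with a median of 1282, and from 4280 to 7480 CPM at P15, with a median of 6382. The groups were far apart and the P6 libraries lay close together. The rise was 4.61-fold (log2 2.21 ± 0.13, SE, adjusted p = 2.79e-11). miR-29a-3p rose from between 389 and 688 CPM (median 475) to between 1232 and 2153 CPM (median 1503), which is 3.31-fold (log2 1.73 ± 0.11, SE, adjusted p = 7.01e-07). miR-29c-3p, which has the same seed, ranged from 343 to 596 CPM at P6 and from 658 to 1075 CPM at P15, without overlap (log2 1.02 ± 0.09, SE, adjusted p = 1.25e-15 without fold threshold). The increase continued after P15, with means of 53945 ± 7839 CPM (SD) for miR-29b-3p and 19022 ± 2666 CPM (SD) for miR-29a-3p at 8 weeks. The family comes from 2 clusters. Mir29a and Mir29b-1 lie on chromosome 6 (chr6:31062660-31062747 and chr6:31063023-31063093), and Mir29b-2 and Mir29c on chromosome 1 in exons of A330023F24Rik (chr1:195037040-195037120 and chr1:195037547-195037634). The precursor-specific arms miR-29b-1-5p and miR-29b-2-5p rose by 1.24 ± 0.33 and 0.99 ± 0.14 (SE) on the log2 scale. Their log2 ratio did not pass the permutation test (change 0.33, adjusted p = 0.616).

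Neuronal miRNAs moved in both directions. Of 19 tested, 7 rose and 6 fell, against 17.8% and 21.0% of all features, and 1 passed the fold threshold. The median was 0.21, and under DESeq2 size factors 9 rose and 4 fell. The rises were those of miR-138, which is known to limit the size of dendritic spines, miR-129 and miR-218-2-3p. miR-138-5p was the most abundant of these and ranged from 3804 to 8749 CPM at P6 (median 5254) and from 11668 to 17512 CPM at P15 (median 14001). Its lowest P15 library was above its highest P6 library. The change was 1.34 ± 0.13 on the log2 scale (SE, adjusted p = 1.05e-13) and was not past the fold threshold (adjusted p = 0.119). The passenger arm miR-138-1-3p (precursor at chr9:122682876-122682974) rose from a median of 22.4 CPM (13.3 to 31.2) to one of 110 CPM (65.4 to 147), a 4.97-fold change (log2 2.31 ± 0.15, SE, adjusted p = 2.79e-11). From the second precursor (chr8:94324311-94324381) miR-138-2-3p rose by 0.98 ± 0.28 (SE). Besides both arms of miR-9, the falls were those of miR-137-3p (log2 -0.48 ± 0.16, SE), miR-153-3p (-0.53 ± 0.17), miR-218-1-3p (-0.71 ± 0.27) and miR-124-5p (-0.78 ± 0.20).

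All 3 tested miRNAs of the miR-132 and miR-212 cluster rose, against 17.8% of all features, without passing the fold threshold. Transcription of this cluster is known to follow neuronal activity through the factor CREB. miR-212-3p ranged from 77.1 to 179 CPM at P6 (median 101) and from 198 to 335 CPM at P15 (median 264). The ages did not overlap and the log2 change was 1.34 ± 0.14 (SE, adjusted p = 2.39e-12). miR-132-3p had a P6 median of 411 CPM and a P15 median of 1015 CPM (log2 1.24 ± 0.21, SE, adjusted p = 2.3e-06), and its highest P6 library, P6 female replicate 5 at 1270 CPM, lay within the P15 range of 645 to 1623 CPM. Both precursors lie side by side on chromosome 11 (chr11:75173388-75173478 and chr11:75173682-75173747), in an intron of 1700016P03Rik. At 8 weeks miR-132-3p averaged 7986 ± 2048 CPM (SD).

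Further miRNAs without overlap between the ages that rose but did not pass the fold threshold were miR-22-3p (log2 0.89 ± 0.11, SE), miR-34a-5p (1.02 ± 0.10), miR-330-3p (1.28 ± 0.14) and miR-3068-5p (1.21 ± 0.10). They were chosen after their values were seen.

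Several of the largest fitted rises rested on very few counts at P6. miR-1199-5p had 1 count in all P6 libraries together and 250 in the P15 libraries, where it ranged from 0.489 to 6.95 CPM. Every P15 library was above every P6 library, and the ratio of the pooled levels was 319 (95% exact interval for counting error, 56.8 to 12656). Its precursor lies in an exon of 2210011C24Rik (chr8:84011515-84011633). The other arm, miR-1199-3p, had 2 counts at P6 and 64 at P15 (ratio 40.9, interval 10.9 to 345). miR-196b-5p, from the Hox gene cluster on chromosome 6, had 3 counts at P6 and 74 at P15 (ratio 31.5, interval 10.4 to 156). All 6 tested miRNAs of the Hox clusters, which are used along the body axis from the hindbrain backwards, rose, against 17.8% of all features, and 2 passed the fold threshold, against 1.87%. Both of these calls, those of miR-196b-5p and miR-10a-3p, were lost when the bulk libraries were thinned to the shallowest. The best counted of them, miR-10a-5p and miR-10b-5p, had medians of 13.8 and 12.2 CPM at P6 and 40.0 and 44.7 CPM at P15, with overlap between the ages (log2 2.11 ± 0.37 and 1.72 ± 0.35, SE). Whole brains were taken, and whether any spinal cord stayed attached is not given in the sources used here.

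The unannotated candidate chr2_24908 had 4 counts at P6, all in P6 male replicate 2, and 112 at P15, where 2 libraries held none. It is given as counts only. The other candidate past the threshold, chr18_22626, had 15 counts at P6 and 147 at P15, with ranges of 0 to 0.509 and 0 to 5.10 CPM that overlapped (log2 3.32 ± 0.53, SE, adjusted p = 0.00103). Its call was lost in females alone and after thinning. The remaining annotated miRNAs that were higher past the threshold, not described above, were low, and most of these entries have no well-known role. Among them miR-1195 had medians of 8.47 CPM at P6 and 45.1 CPM at P15 (log2 2.57 ± 0.28, SE), miR-6240 of 11.9 and 45.7 CPM (2.02 ± 0.19, SE) and miR-690 of 8.50 and 31.7 CPM (1.98 ± 0.23, SE), each without overlap. miR-709, miR-6238, miR-7080-3p, miR-7662-3p and miR-10a-3p had medians of 0 to 2.87 CPM at P6 and of 0.625 to 11.98 CPM at P15.

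The largest fitted fall of all features was that of miR-449c-5p. Mir449c and Mir449a lie on chromosome 13 within introns of Cdc20b (chr13:113035983-113036091 and chr13:113037534-113037624). miR-449a-5p ranged from 1223 to 4201 CPM at P6, with a median of 2483, and from 338 to 1060 CPM at P15, with a median of 702. The ages did not overlap, and the level was 3.68-fold lower at P15 (log2 -1.88 ± 0.23, SE, adjusted p = 0.00457). This call was lost without P6 female replicate 2, the highest P6 library, and in males alone. miR-449c-5p ranged from 14.9 to 68.3 CPM at P6 (median 30.5) and from 1.08 to 8.16 CPM at P15 (median 2.72), 12.3-fold lower (log2 -3.62 ± 0.36, SE, adjusted p = 3.74e-08). miR-449b had 135 counts at P6 and 6 at P15 (log2 -3.28 ± 0.46, SE), and its call too was lost in males alone. miR-449a-3p had 46 counts at P6 and none in any of the 12 P15 libraries, which makes it at least 12.01-fold lower against a floor of 3 counts over the group. At 8 weeks miR-449a-5p averaged 35.5 ± 5.59 CPM (SD).

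The miR-34b and miR-34c precursors, also known from multiciliated cells, had nearly equal mean levels at both ages. Of the 8 miRNAs of that list 4 fell, against 21.0% of all features, and 3 passed the fold threshold, against 1.68%. Those that fell were all miR-449, and the other 4 were miR-34b and miR-34c arms. miR-34b-5p averaged 594.9 CPM at P6 and 620.9 CPM at P15 (log2 0.01 ± 0.18, SE, adjusted p = 0.986), and miR-34c-5p 293.4 and 314.4 CPM (log2 0.01 ± 0.20, SE, adjusted p = 0.98). Among the 4 sequenced miRNAs with the seed GGCAGUG, miR-449a-5p and miR-449c-5p fell, miR-34b-5p did not pass the test and miR-34a-5p rose.

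The miR-130 and miR-301 family, with the seed AGUGCAA in the 3 members that had a sequence, fell together. Of 7 arms tested 6 fell, against 21.0% of all features, 3 of them past the fold threshold, and the median was -1.44. miR-130b-3p ranged from 235 to 394 CPM at P6, with a median of 325, and from 47.5 to 133 CPM at P15, with a median of 89.0. Its precursor lies in an intron of 2610318N02Rik (chr16:17124061-17124142). No P15 library reached the lowest P6 value, and the level was 3.67-fold lower (log2 -1.87 ± 0.12, SE, adjusted p = 1.41e-08). Its other arm miR-130b-5p was 3.54-fold lower (adjusted p = 5e-06), with medians of 53.0 and 16.4 CPM. miR-301b-3p fell from a median of 81.5 CPM (59.4 to 121) to one of 24.0 CPM (12.2 to 33.8), which is 3.88-fold (log2 -1.96 ± 0.13, SE, adjusted p = 4.36e-08). miR-130a-3p, the most abundant of the family, fell by 0.97 ± 0.15 (SE), from a median of 8554 CPM to one of 4159 CPM, with overlap. miR-301a-3p fell by 1.17 ± 0.09 (SE), from between 1467 and 2555 CPM to between 665 and 1294 CPM.

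Of 25 miRNAs of the miR-17-92 cluster and its paralogs, 21 fell and none rose, against 21.0% and 17.8% of all features. None passed the fold threshold. The median was -0.88, and 21 fell also under DESeq2 size factors and 19 with library size alone. miR-20a-5p ranged from 1612 to 5214 CPM at P6 (median 3344) and from 1122 to 3091 CPM at P15 (median 1621). The ages overlapped, since the P6 libraries spread widely, and the log2 change was -0.84 ± 0.14 (SE, adjusted p = 5.19e-07). miR-17-5p fell by 0.99 ± 0.13 (SE) from a median of 2902 CPM to one of 1325 CPM, and miR-18a-5p by 1.22 ± 0.11 (SE) from 1697 to 669 CPM. All 6 miRNAs with the seed AAAGUGC fell, as did all 5 with the seed AUUGCAC. The summed level of the 25 miRNAs was between 10472 and 25858 CPM at P6 and between 6524 and 14903 CPM at P15.

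All 5 tested arms of miR-135 fell, against 21.0% of all features, with a median of -1.24. miR-135a-5p was the most abundant and fell from a median of 6388 CPM (5656 to 7953) to one of 2816 CPM (2256 to 3173), without overlap (log2 -1.24 ± 0.12, SE, adjusted p = 3.16e-13). Of its precursors, Mir135a-1 (chr9:106154124-106154213, opposite an exon of Glyctk) gave the larger fall. miR-135a-1-3p fell from between 27.7 and 58.8 CPM (median 41.2) to between 3.53 and 9.95 CPM (median 4.39), which is 7.32-fold (log2 -2.87 ± 0.21, SE, adjusted p = 2.79e-11). miR-135a-2-3p fell by 1.23 ± 0.15 (SE), and the log2 ratio of both arms changed by -1.63 (permutation test, adjusted p = 0.00012).

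**Figure D3:**
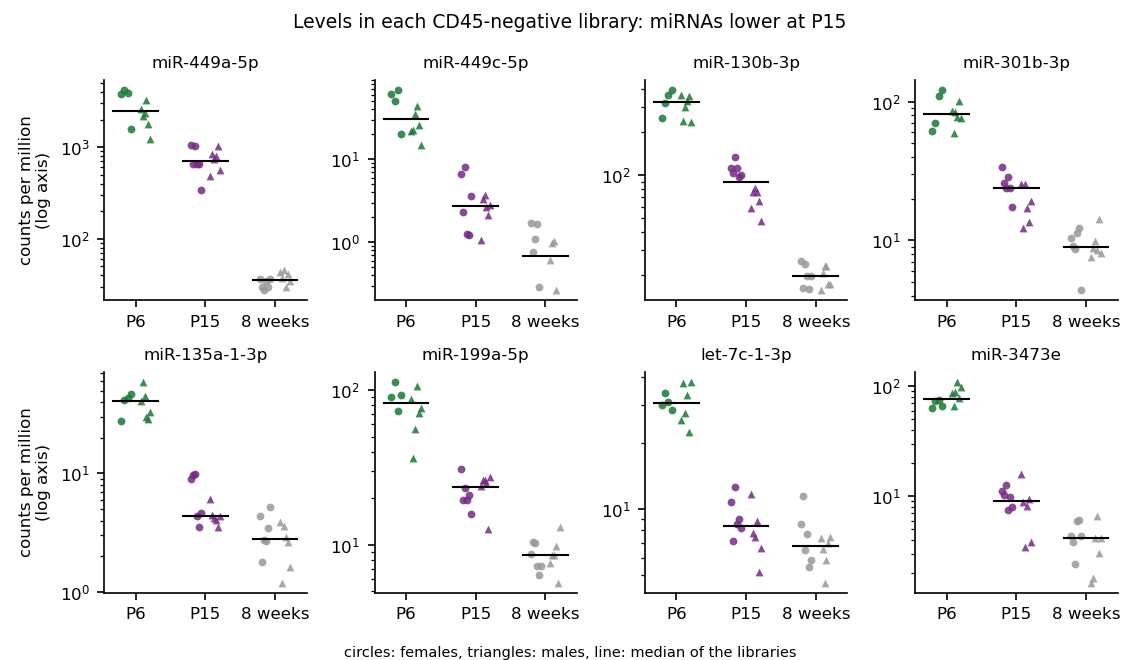
Levels in CPM (vertical log axes) of 8 miRNAs that were lower at P15, in each CD45-negative library at P6 (green), P15 (purple) and 8 weeks (grey). Circles are females, triangles males and lines the medians, and 8-week libraries with no count of miR-449c-5p are not drawn. In all 8 panels every P15 library lies below every P6 library, and miR-449a-5p is lower again at 8 weeks, at 35.5 CPM on average.

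miR-199 and miR-214, known from fibroblasts and mural cells, fell, while other miRNAs of the same list did not. Mir214 and Mir199a-2 lie in exons of the antisense RNA Dnm3os (chr1:162223368-162223477 and chr1:162217814-162217923). Leaving out miR-214-5p and taking miR-199a-3p and miR-199b-3p as 1, 9 measurements of mural cells and fibroblasts remained, of which 4 fell, against 21.0% of all features, and 3 passed the fold threshold, against 1.68%. All 4 were miR-199 or miR-214 arms. miR-199a-3p fell from between 650 and 1271 CPM (median 831) to between 267 and 491 CPM (median 333), which is 2.65-fold (log2 -1.41 ± 0.11, SE, adjusted p = 0.00775). miR-199b-3p had 70351 counts at P6 against 70350 of miR-199a-3p, and 21468 against 21469 at P15, so that both names stand for 1 measurement. The call was lost under both other scalings, with the filter of 10 counts, in females alone, in the bulk libraries alone with and without the replicate block or thinning, in DESeq2's Wald test and on leaving out any 1 of 8 single libraries. miR-199a-5p fell from a median of 82.5 CPM (36.1 to 112) to one of 23.6 CPM (12.7 to 30.7), without overlap, and miR-214-3p from 27.3 CPM (14.3 to 56.5) to 8.34 CPM (1.90 to 12.7). These are 3.56-fold and 4.11-fold changes (adjusted p = 2.41e-05 and 0.00157), and both calls were lost in males alone. miR-214-5p had 134 counts at P6 and 18 at P15. miR-143-3p, of smooth muscle cells, averaged 6157 CPM at P6 and 8320 CPM at P15 and did not pass the test (log2 0.45 ± 0.25, SE, adjusted p = 0.154).

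**Figure D4:**
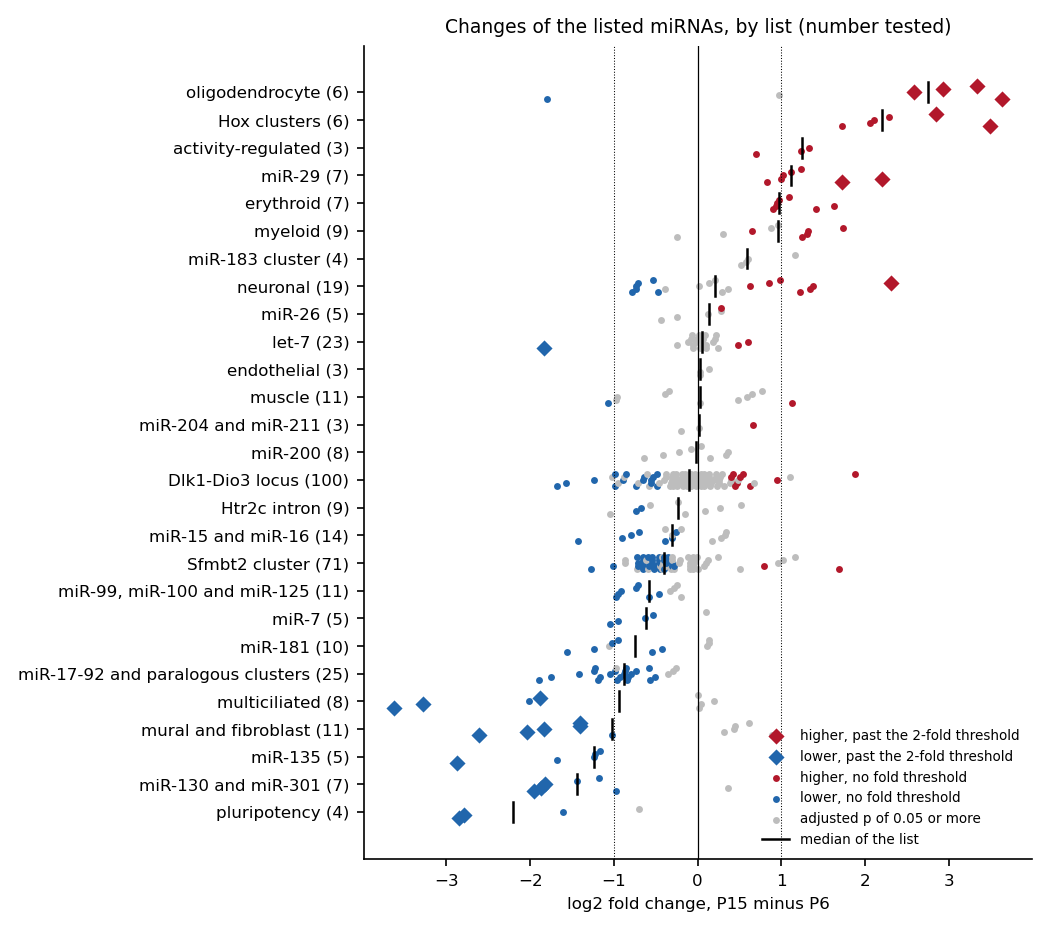
Log2 fold change from P6 to P15 (horizontal axis) of each tested miRNA of 27 lists, with the number tested in brackets, ordered by the list median (black bar). Diamonds passed the 2-fold threshold, and small red or blue points passed the test without it. The oligodendrocyte list lies furthest to the right with a median of 2.75, and all 25 miRNAs of the miR-17-92 clusters lie left of 0.

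let-7 is known as a family that increases as cells mature. Of 23 tested arms 2 rose and 1 fell, against 17.8% and 21.0% of all features, with a median of 0.05, although 5 rose under DESeq2 size factors and 9 with library size alone. The 10 miRNAs with the let-7 seed GAGGUAG had log2 changes between -0.11 and 0.48. The exception was let-7c-1-3p, a passenger arm from chr16:77599657-77599750 in an intron of Mir99ahg, which fell from a median of 30.4 CPM (22.5 to 37.9) to one of 8.39 CPM (5.18 to 12.6), without overlap. The change was 3.56-fold (log2 -1.83 ± 0.16, SE, adjusted p = 3.86e-05). From the same host RNA, miR-99a-5p fell from between 4830 and 7163 CPM to between 2746 and 4380 CPM (log2 -0.74 ± 0.08, SE, adjusted p = 1.23e-12). Of 11 arms of miR-99, miR-100 and miR-125, 7 fell, against 21.0% of all features, with a median of -0.58. None passed the fold threshold. The number of falls was the same under both other scalings.

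miR-302, a family of pluripotent cells, was near the floor. Apart from miR-302a-3p, given as counts, its tested members miR-302b-3p and miR-302d-3p fell, and miR-292a-3p of the same list did not pass the test. miR-302b-3p (chr3:127545228-127545301, opposite an intron of Larp7) had 419 counts at P6, with a range of 3.10 to 9.83 CPM, and 56 at P15, with a range of 0 to 2.16 CPM (log2 -2.85 ± 0.43, SE, adjusted p = 0.00108), and this call was lost in males alone. miR-302d-3p changed by 0.02 ± 0.63 in females and by -3.23 ± 0.60 in males (log2, SE), a difference between the sexes that the test did not call. miR-302a-3p had 143 counts at P6 and 15 at P15.

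miR-3473e and miR-3473b were lower at P15 and are more abundant in microglia, as were several other called miRNAs such as miR-29a-3p, miR-29b-3p and miR-690. The 2 sequences differ only near their 3′ end, so that reads of either may be counted for the other. miR-3473e fell from between 63.9 and 109 CPM (median 76.6) to between 3.49 and 16.0 CPM (median 9.12), which is 9.09-fold (log2 -3.18 ± 0.20, SE, adjusted p = 3.71e-14). In the CD45-positive microglia of the same brains its mean fell from 2423 to 362 CPM. miR-3473b fell by 1.64 ± 0.16 in the bulk cells (SE) and by 2.53 ± 0.12 in microglia (SE), and its bulk call was lost with library size alone, with no filter, in females alone and without P15 male replicate 3. At P6 microglia held 4724 CPM of miR-29a-3p, 11419 CPM of miR-29b-3p and 100.6 CPM of miR-690, against 481.5, 1323 and 8.65 CPM in the bulk cells. The part of microglial RNA in the bulk values was not tested. miR-701-5p fell in the bulk cells from a median of 52.0 CPM to one of 16.7 CPM without overlap (log2 -1.63 ± 0.11, SE, adjusted p = 1.39e-05).

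Of 100 miRNAs tested from the Dlk1-Dio3 locus on chromosome 12, which is transcribed from the maternal chromosome, 9 rose and 15 fell, against 17.8% and 21.0% of all features. None passed the fold threshold, and the median was -0.10. The balance turned with the scaling, to 14 rises and 12 falls (median 0.03) under DESeq2 size factors and 15 and 10 (median 0.06) with library size alone. miR-136-5p, the most abundant at P6, had medians of 5249 CPM at P6 and 4261 CPM at P15 (log2 -0.40 ± 0.17, SE, adjusted p = 0.0597). Against this median, miR-770-5p rose by 0.94 ± 0.13 (SE) and miR-376b-3p fell by 0.98 ± 0.18 (SE), each without overlap. Of 71 miRNAs of the Sfmbt2 cluster 32 fell and 2 rose, against the same shares of all features, with a median of -0.40, but 20 fell under DESeq2 size factors and 14 with library size alone. Several names of this cluster have identical counts, among them miR-467a-5p (log2 -0.31 ± 0.08, SE) and miR-467b-5p and groups of miR-297, miR-466 and miR-669 arms. Counted once each, the 71 names were 61 measurements, of which 26 fell and 2 rose.

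In the families that follow, no miRNA passed the fold threshold. Of 10 miR-181 arms 6 fell and none rose, against 21.0% and 17.8% of all features, with a median of -0.75. Under DESeq2 size factors 2 rose and 6 fell, and with library size alone 2 rose and 5 fell. The most abundant arm, miR-181a-5p, did not pass the test (log2 0.11 ± 0.10, SE, adjusted p = 0.374), while miR-181d-5p fell by 0.95 ± 0.12 (SE), without overlap. miR-7a-5p fell by 0.62 ± 0.12 (SE), from a median of 8282 CPM to one of 5632 CPM. Of the 5 miR-7 arms 4 fell, against 21.0% of all features. miR-16-5p fell by 0.31 ± 0.09 (SE), and of 14 arms of miR-15 and miR-16 none rose and 7 fell, against 17.8% and 21.0% of all features. Under DESeq2 size factors 3 of them rose and 5 fell, and with library size alone 3 rose and 4 fell. miR-26a-5p rose by 0.28 ± 0.08 (SE). miR-204-5p, of the choroid plexus, had medians of 8058 and 8236 CPM (log2 0.01 ± 0.23, SE, adjusted p = 0.975), and miR-1298-5p, from an intron of the serotonin receptor gene Htr2c, 1168 and 799 CPM (log2 -0.57 ± 0.27, SE, adjusted p = 0.0844). Of the 3 miRNAs of the miR-204 and miR-211 list 1 rose, miR-204-3p (log2 0.66 ± 0.21, SE). Of 9 miRNAs from the Htr2c introns 2 fell, miR-448-3p and miR-1264-3p, against 21.0% of all features. Under DESeq2 size factors 1 of the 9 fell, and with library size alone 0 fell.

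Markers of other cells were examined in the same libraries. The summed level of 5 myeloid marker miRNAs ranged from 193.7 to 345.1 CPM at P6 and from 485.2 to 752.8 CPM at P15, and all 5 rose. Of the 9 miRNAs of the myeloid list these 5 rose, against 17.8% of all features, and 4 did not pass the test, among them miR-155-5p (log2 -0.24 ± 0.13, SE, means 104.5 and 87.8 CPM). At their medians these levels were 1.41% and 1.51% of those in the microglia of the same age. miR-146a-5p, induced by inflammatory signalling, rose by 1.30 ± 0.17 (SE) in the bulk cells, from a median of 135 CPM to one of 316 CPM. All 7 red cell miRNAs rose, against 17.8% of all features. miR-451a ranged from 1173 to 1678 CPM at P6 and from 2142 to 9001 CPM at P15, without overlap (log2 1.42 ± 0.24, SE, adjusted p = 1.36e-06). Endothelial miR-126a-3p had medians of 23256 and 22859 CPM (log2 0.14 ± 0.20, SE, adjusted p = 0.628). The oligodendrocyte markers summed to between 1129 and 2455 CPM at P6 and between 9659 and 17455 CPM at P15 in the bulk cells.

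The P15 libraries fell into an order that several of these markers shared. The 4 libraries highest in miR-451a, from 6254 to 9001 CPM against 2142 to 3568 CPM in the other 8, were also the 4 highest in miR-204-5p, from 11328 to 18527 CPM, and the 4 lowest in miR-126a-3p, from 13457 to 21109 CPM. They came from 3 females and 1 male. Without these 4 mice, an alternative chosen after seeing the data, 20 features were higher and 23 lower past the fold threshold, and 35 of the 38 calls were kept.

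Epithelial miRNAs varied widely between mice of the same age. miR-429-3p ranged from 13.0 to 1743 CPM at P6 (median 62.6) and from 11.4 to 1473 CPM at P15 (median 60.2). The highest P6 library was 134-fold above the lowest. The 8 libraries highest in miR-429-3p, 3 at P6 and 5 at P15, were also the 8 highest in miR-200b-3p, and 7 of them were among the 8 highest in miR-183-5p. None of the 8 miRNAs of the miR-200 list and none of the 4 of the miR-183 cluster passed the test between ages (limma without fold threshold). The log2 change of miR-429-3p was -2.22 ± 1.01 (SE) in females and 2.06 ± 0.90 (SE) in males. miR-183-5p had medians of 44.0 and 51.4 CPM (log2 0.52 ± 0.40, SE). Muscle miR-133a-3p had medians of 127 and 120 CPM (log2 0.03 ± 0.19, SE), and in the muscle list 1 of 11 rose (miR-1a-3p) and 1 fell (miR-206-3p).

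Both arms of a precursor mostly moved together. Of 323 pairs of arms, called or not, 245 had changes of the same sign. In 79 pairs both arms changed, and in 75 of these the direction was the same (31 up and 44 down). The 4 with opposite directions were miR-27a, miR-376b, miR-574 and miR-148b. In miR-27a the 3p arm miR-27a-3p rose from a mean of 1983 to 2685 CPM, while miR-27a-5p fell from 3.377 to 0.906 CPM. In miR-376b, whose arms both have above 100 CPM, the 5p arm rose by 0.43 ± 0.14 (SE) and the 3p arm fell by 0.98 ± 0.18 (SE). Arms of sister precursors, which give the same mature miRNA from different loci, were compared within each library for 18 pairs, and the ratio changed with age in 8 of them (permutation tests adjusted over the 18). Besides miR-219a and miR-135a these included miR-218, where miR-218-1-3p fell by 0.71 ± 0.27 (SE) and miR-218-2-3p rose by 1.38 ± 0.29 (SE), and miR-181a, where miR-181a-2-3p fell by 1.56 ± 0.22 (SE) and miR-181a-1-3p by 0.43 ± 0.13 (SE). In the let-7c pair, let-7c-2-3p has the sequence of let-7a-1-3p, so that its counts cannot be given to 1 locus.

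These changes were set beside those in the CD45-positive microglia of the same mice. The microglial libraries also held miRNAs known from other cells. The summed level of 5 neuronal marker miRNAs, among them miR-9-5p and miR-124-3p, had medians of 150606 CPM at P6 and 87067 CPM at P15 there. In the bulk cells the medians were 323554 and 229147 CPM. How much of the microglial values came from other cells was not tested. In microglia 8 features were higher and 23 lower at P15 past the fold threshold. The change from P6 to P15 differed between the fractions past the threshold for 17 features, 1.59% of those tested, of which 12 had the higher change in the bulk cells. miR-338-3p had log2 changes of 2.58 in the bulk cells and of 0.83 ± 0.13 (SE) in microglia, a difference of 1.75 ± 0.17 (SE, adjusted p = 0.0014). miR-338-5p differed by 1.92 ± 0.20 (SE, adjusted p = 0.0014) and miR-219a-5p by 1.98 ± 0.26 (SE, adjusted p = 0.0155). For miR-219a-2-3p the difference of 1.66 ± 0.27 (SE) did not pass (adjusted p = 0.324), and its levels in microglia were 130 CPM at P6 and 516 CPM at P15. miR-29a-3p rose by 1.73 in bulk cells and by 1.63 in microglia (difference 0.10 ± 0.14, SE).

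In the other direction, miR-130b-3p had log2 changes of -1.87 in the bulk cells and of -0.24 ± 0.11 (SE) in microglia (difference -1.63 ± 0.15, SE, adjusted p = 0.0032). miR-203-3p, known from epithelia, fell by 1.07 in the bulk cells, from a mean of 69.3 to one of 32.3 CPM, and had a log2 change of 0.69 ± 0.11 (SE) in microglia (adjusted p of the difference 0.000261). Both arms of miR-455 rose by 1.81 in microglia and did not pass the test in the bulk cells, at -0.26 for miR-455-3p and -0.33 for miR-455-5p. miR-181a-2-3p fell in the bulk cells and had a log2 change of 0.90 ± 0.16 (SE) in microglia. miR-449a-5p fell in both fractions, by 1.88 and by 2.80 ± 0.26 (SE), as did miR-135a-1-3p, by 2.87 and by 2.67 ± 0.24 (SE). Since the fractions came from the same brains, RNA shared between them can enter both changes, and its part was not tested.

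**Figure D5:**
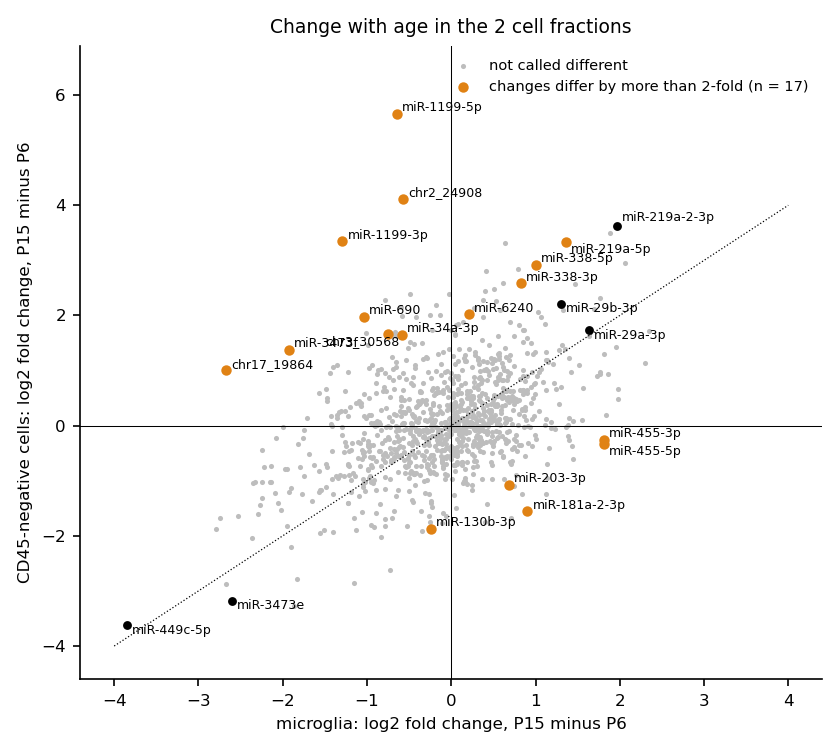
Log2 fold change from P6 to P15 in the CD45-negative cells (vertical axis) against that in the microglia of the same brains (horizontal axis) for 1072 features, with the dotted line marking equal change. Orange points are the 17 features whose changes differed past the 2-fold threshold, and black points are 5 further miRNAs named in the text. miR-338 and miR-219a-5p lie above the line, miR-130b-3p and miR-455 below it, and miR-29a-3p on it.

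Females and males were compared in their change with age. In females alone 13 features were higher and 16 lower at P15 past the fold threshold, and in males alone 21 and 14. No feature had a change that differed between the sexes past the threshold (limma TREAT), with 31 at an unadjusted p under 0.05. The test without fold threshold called 2, with 123 at an unadjusted p under 0.05, and edgeR's quasi-likelihood test called 0. The 2 were miR-1249-3p, with a log2 change of 1.67 ± 0.19 (SE) in males against 0.16 ± 0.22 (SE) in females (adjusted p of the difference 0.00185), and miR-3064-3p, which was close to the floor at both ages. miR-130b-3p, miR-338-3p and miR-29b-3p fell or rose in both sexes, at -1.59 and -2.16, 2.49 and 2.68, and 2.17 and 2.24 on the log2 scale in females and males.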

How the data were processed

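Small RNA of 70 libraries was sequenced. Per the paper's methods the authors removed adapters and filtered read length with fastp 0.20.0, then matched reads with miRDeep2 to mature miRBase miRNAs and the mm10 genome. They deposited 1 table of raw counts per miRNA and candidate miRNA in every library. A read can be counted for each precursor it matches, and 79 of 1885 names have several entries. The best counted entry stood for the miRNA, and the entries so used held 48.9% to 54.2% of all entry counts. Of 1882 features, the 1072 that reached 1 CPM in 5 or more libraries before scaling were tested, with TMM scaling. Depth was 2795957 to 8747394 counts, and 3 counts were taken as the floor.

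The P15 against P6 contrast of bulk cells was taken from a limma-voom fit of 68 libraries from 34 mice, with age, fraction and sex groups as means, both sexes weighted equally, and the mouse as a random effect (correlation 0.124). Calls used TREAT against a log2 fold change of 1, or limma's moderated test without threshold, each at a Benjamini-Hochberg adjusted p under 0.05. Mice of the same number at different ages were not pairs (10 pairs, mean correlation -0.00441, none over 0.1). Other tests were two-sided permutation tests over libraries with 100000 resamples. Versions were R 4.3.3, limma 3.58.1, edgeR 4.0.16, DESeq2 1.42.0 and scipy 1.17.1. The procedure was tested on simulated data.

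The libraries and the lists of miRNAs were chosen with earlier results of these data known. Named miRNAs were the called ones without overlap and with the largest changes at a mean of at least 100 CPM, those with the largest change in CPM, up to 4 called members or the most abundant member of each list, and the leading called candidates, and others are named where a count or comparison rests on them. Alternatives changed the scaling, filter, test, block, sexes and libraries. Nothing states litters, so that the p-values set each change against the spread between these mice without regard to litter. P6 female mouse 6 entered only 1 alternative, and the 8-week libraries shared the fit without entering the contrast.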

Additional observations from a re-analysis of the deposited data

Results flagged for a closer look

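In 17 features, 1 of them given as a value only, the change from P6 to P15 differed between the bulk cells and the microglia past the fold threshold. The difference, bulk minus microglia on the log2 scale, was 6.30 for miR-1199-5p, 4.70 for the candidate chr2_24908 (which entered the test only through the P15 bulk libraries and so had to differ), 4.64 for miR-1199-3p, 3.67 for the candidate chr17_19864, 3.30 for miR-3473f, 3.01 for miR-690, 2.41 for the candidate chr3_30568 and 2.23 for miR-34a-3p. It was 1.98 for miR-219a-5p, 1.92 for miR-338-5p, 1.81 for miR-6240 and 1.75 for miR-338-3p. It was -1.63 for miR-130b-3p, -1.75 for miR-203-3p, -2.07 for miR-455-3p, -2.14 for miR-455-5p and -2.46 for miR-181a-2-3p.

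Groups were the libraries of 1 age and 1 sex. Of 172 such groups examined over 43 named miRNAs, 16 held a library far from the rest, and chance gives about 8.6. The gap to the nearest library is given as a share of the whole range of the group, both taken on the log2 scale. Among P15 males, replicate 1 was highest in miR-451a (gap 0.715, 7330 CPM against at most 3100) and in miR-16-5p (0.713), and lowest in miR-126a-3p (0.636) and miR-10a-3p (0.631). Of the same males, replicate 5 was lowest in miR-199a-5p (0.820) and highest in miR-26a-5p (0.646), and replicate 4 was highest in miR-338-3p (0.656). Among P15 females, replicate 6 was highest in miR-429-3p (0.735, 741 CPM against at most 45.5) and miR-183-5p (0.677), replicate 2 highest in miR-7a-5p (0.668) and replicate 5 lowest in miR-196b-5p (0.648). Among the 4 P6 females, replicate 5 was lowest in miR-449a-5p (0.894, 1560 CPM against at least 3780). Among P6 males, replicate 2 was lowest in miR-214-3p (0.659) and the only male library with the candidate chr2_24908 (0.914). For miR-196b-5p, with 3 counts in all of P6, the libraries were P6 female replicate 2 (0.915) and P6 male replicate 4 (0.731).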

How the results depend on the processing

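No call past the fold threshold changed direction under any alternative. Against 38 calls (20 higher, 18 lower), the moderated test without threshold gave 416 (191 and 225), 428 with DESeq2 size factors (244 and 184) and 422 with library size alone (259 and 163), and edgeR without threshold 335 (141 and 194). With a threshold, females alone gave 13 higher, and DESeq2's Wald test 36 calls. Without single libraries there were 36 to 45 calls, 20 to 27 higher and 14 to 21 lower. Without threshold 269 features differed between fractions and 2 between sexes, and with P6 female mouse 6 included 1 differed between sexes.

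The fit of the bulk libraries alone gave 33 calls. The replicate block by title number on the same libraries, which pairs no mice, gave 32 (17 and 15), and on all libraries dropping the mouse as a random effect gave 38. The calls of miR-199a-3p and miR-199b-3p were lost under both other scalings, with the filter of 10 counts, in females alone, in the bulk libraries alone (also with the block or thinned), in DESeq2's Wald test and without any of P15 female replicate 6, P15 male replicates 3, 5 and 6, P6 female replicates 1 and 2 and P6 male replicates 1 and 4. miR-449a-5p was lost without P6 female replicate 2 and in males alone, and miR-3473b without P15 male replicate 3, with library size alone, with no filter and in females alone. In males alone miR-199a-5p, miR-214-3p, miR-302b-3p and miR-449b were lost as well, and in females alone the candidate chr18_22626, miR-196b-5p, miR-690, miR-709 and miR-7662-3p, of which the first and second were also lost after thinning. Calls of the low miR-6238, miR-7080-3p, miR-10a-3p and miR-1199-3p were lost under 3 to 7 settings. Thinning all libraries to 2795957 counts, chosen after seeing the data, with the bulk libraries alone, kept 28 of 38 calls, against 33 for the bulk libraries alone without thinning.

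Of the uncalled miRNAs chosen by the naming rule, 5 had log2 changes that turned sign, and the cause was not tested. Others near 0 did so with the scaling, such as let-7a-5p at -0.02, 0.10 with DESeq2 size factors and 0.14 with library size alone. miR-429-3p was 0.0212 and 0.0377 under the other scalings, 0.0224 with a filter of 10 counts, 0.312 with P6 female mouse 6, 2.06 in males (-2.22 in females), 0.0279 in edgeR, 0.112 in DESeq2 and 0.0962 after thinning. miR-204-5p was -0.0265 with P6 female mouse 6, -0.0562 with quality weights, -0.300 in females and -0.443 without the 4 P15 mice highest in miR-451a, where miR-181a-5p was -0.0213. In males miR-181a-5p was -0.0739, and in females miR-183-5p was -0.211. miR-133a-3p was -0.0388 with quality weights, -0.0559 in females and -0.00992 in edgeR. Without single libraries miR-429-3p ranged from -0.435 to 0.513, miR-204-5p ranged from -0.0708 to 0.221 and miR-133a-3p from -0.00223 to 0.236.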

Other observations

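Among other miRNAs of the muscle and erythroid lists, miR-206-3p, known from skeletal muscle and also found in the cerebellum, fell from a mean of 155.2 CPM at P6 to one of 62.5 CPM at P15, while miR-1a-3p rose from 22.5 to 48.2 CPM. miR-206-3p and miR-1a-3p are named because the count of the list rests on them. The summed level of the miR-200 list ranged from 23.2 to 3309 CPM at P6 and from 22.9 to 3047 CPM at P15. The lowest of the 8 libraries with much miR-429-3p held 222 CPM of it and the highest of the other libraries 148 CPM.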
